A study of Saccharomyces cerevisiae with 16 samples.

Results

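The genes described here encode the machinery of RNA polymerases I and III in the budding yeast Saccharomyces cerevisiae. The set was chosen by name as the subunits and initiation factors of both enzymes, and its 37 genes are among 5404 named genes tested. It holds 7 subunits of RNA polymerase I, 3 subunits shared with RNA polymerase III, 10 subunits of RNA polymerase III, 8 initiation factors of RNA polymerase I, 6 subunits of the factor TFIIIC, 2 subunits of TFIIIB and the repressor gene MAF1. Each of the 37 has 1 probe set, and all 37 could be tested.

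Wild type cells of strain BY4741 in early exponential phase grew at 30 °C in YEPD, a rich glucose medium, and were exposed for 1 h to acrolein at 0.05 mM, to H2O2 at 0.3 mM or to NEM at 0.016 mM, while the control received no chemical. Each of the 4 groups has 4 arrays. Acrolein is a reactive unsaturated aldehyde and H2O2 (hydrogen peroxide) an oxidant. The labels give NEM as an abbreviation alone, which is taken to mean N-ethylmaleimide, a compound that reacts with thiols. All groups share the strain, the medium and the temperature, and every one of them is wild type.

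RNA polymerase I transcribes the large ribosomal RNA precursor from the repeated rDNA, and RNA polymerase III transcribes tRNAs, the 5S ribosomal RNA and other small RNAs. Rrn3, core factor and the upstream activating factor UAF bring RNA polymerase I to the rDNA promoter, whereas TFIIIC binds tRNA genes and places TFIIIB, which recruits RNA polymerase III. Maf1 represses RNA polymerase III when nutrients are short or cells are stressed, and growing cells keep it phosphorylated and inactive.

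Values are the authors' GCRMA log2 signals, so a difference of 1 is a 2-fold change. Array medians ran from 11.85 to 11.92. The highest signal of probe sets for another yeast species was 5.15, and it serves here as a level of background. Differences carry the standard error (SE) of the limma model and n = 4 arrays per group, with a median SE of 0.086 over all probe sets. A gene is called where its limma p, adjusted by the Benjamini-Hochberg method over 5785 probe sets, lies under 0.05. Whether the 4 arrays of a group stem from separate cultures is not in the labels. The p-values therefore measure the spread among these arrays alone, and that spread may be technical. The doses differ between compounds, so sizes of response do not rank them, and the 3 comparisons with the control use the same control arrays.

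Acrolein replicate 1 and H2O2 replicate 4 stood apart before any gene was compared. The mean signal of 7 ribosomal RNA probe sets was 15.48 on acrolein replicate 1 and 9.20 to 12.52 on the other acrolein arrays. It was 4.38 on H2O2 replicate 4 and 7.80 to 11.56 on the other H2O2 arrays. The NEM arrays ran from 9.23 to 12.64 and the control arrays from 8.75 to 11.55. Replicate 4 had the lowest mean in each of the 4 groups, at 9.20 after acrolein, 9.23 after NEM and 8.75 in the control. The next lowest arrays of these groups read 11.77, 11.94 and 10.68. The 3′ minus 5′ signal, which grows as RNA breaks down, was 1.20 on acrolein replicate 1 and 0.60 to 0.78 on the other 15 arrays. With both arrays left out, a setting added after the data were seen, 14 members were called higher and 7 lower after acrolein, 4 and 1 after H2O2, and 15 and 7 after NEM. The shares among all probe sets are not given for this setting, so these counts do not compare the members with all probe sets.

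Of the 7 subunits specific to RNA polymerase I, 6 rose after acrolein, 6 after NEM and 3 after H2O2, and RPA12 was not called in any of these comparisons. Of the 37 members, 14 were higher, 6 were lower and 17 were not called after acrolein, against 27.2% higher and 36.9% lower among all probe sets. After NEM 11 were higher and 5 lower, with 21 not called, against 26.4% higher and 32.2% lower. After H2O2 4 were higher and 1 lower, with 32 not called, against 9.23% higher and 10.6% lower. The share of members called higher was thus 37.8% after acrolein, 10.8% after H2O2 and 29.7% after NEM, and the median difference was 0.20, 0.05 and 0.09, beside -0.05, -0.02 and -0.01 over all probe sets.

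At least 2-fold higher and called were 7 members after acrolein, against 6.71% of all probe sets, 1 after H2O2 (1.76%) and 3 after NEM (4.53%). Without regard to calls, the 4 acrolein arrays lay wholly above the 4 control arrays for 13 members and wholly below for 4, against 24.5% and 33.3% of all probe sets. For H2O2 these counts were 5 above and 2 below (10.8% and 14.4%), and for NEM 10 above and 4 below (24.3% and 30.1%). The members separated downwards were thus a smaller share than among all probe sets in each of these comparisons.

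No RNA polymerase I subunit was called lower than in the control, and the median differences of these 7 genes were 1.40 after acrolein, 0.60 after H2O2 and 0.94 after NEM. Among the 10 RNA polymerase III subunits 5 rose and 1 fell after acrolein, 1 rose after H2O2, and 1 rose and 1 fell after NEM. Their medians were 0.44, 0.05 and -0.17. The 8 initiation factors of RNA polymerase I gave 1 higher and 1 lower after acrolein, none called after H2O2, and 2 higher and 1 lower after NEM. Among all probe sets 27.2% were higher and 36.9% lower after acrolein, 9.23% and 10.6% after H2O2, and 26.4% and 32.2% after NEM. The RNA polymerase III subunits higher after H2O2 (10%) and the initiation factors higher after NEM (25%) lie near these shares.

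**Figure D1:**
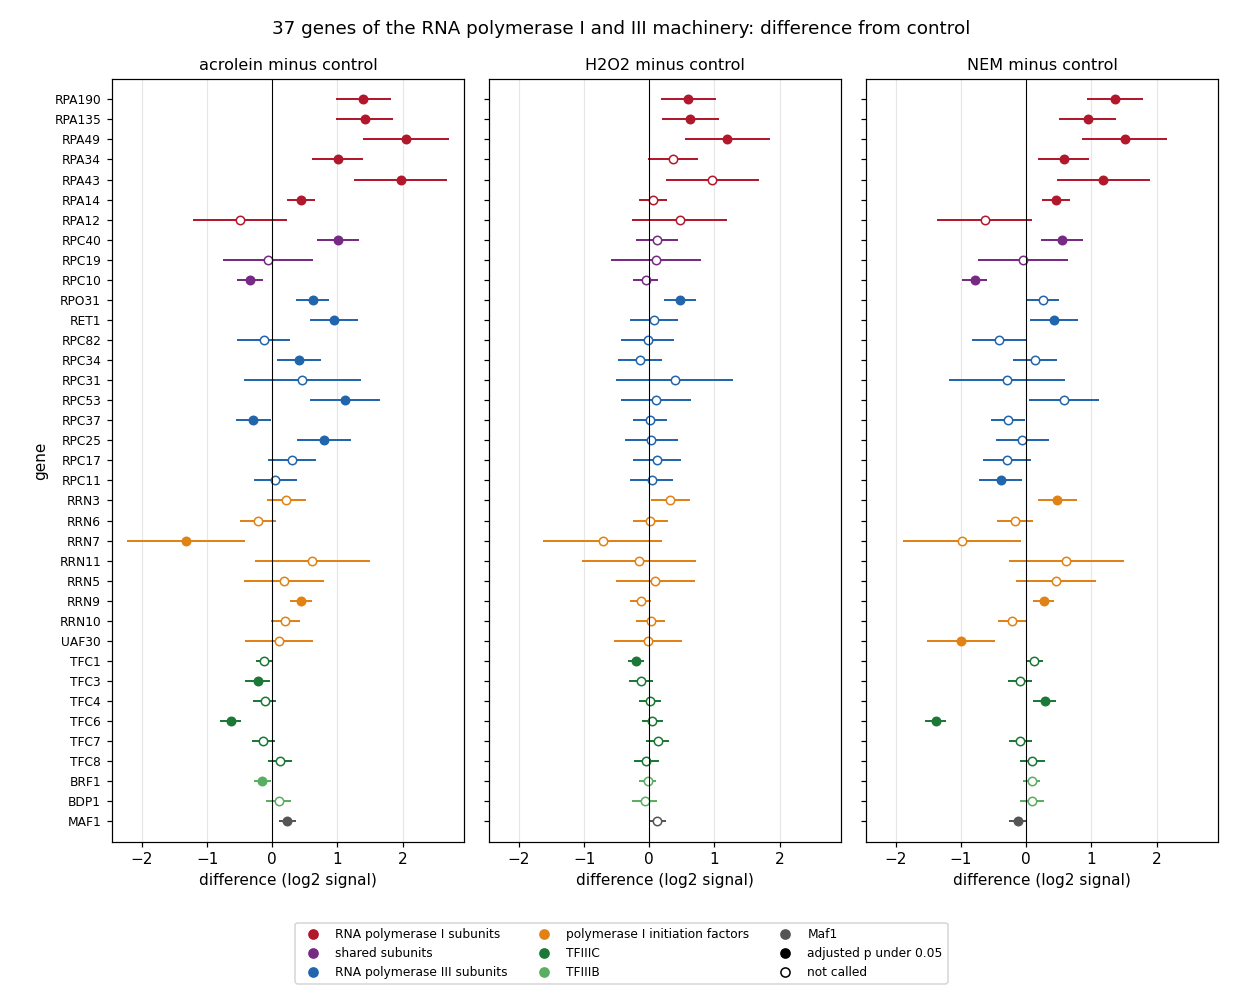
Difference in log2 signal from the control for each of the 37 genes after acrolein, H2O2 and NEM, with bars for the 95% interval of the limma model, coloured by role. Filled points are called (adjusted p under 0.05). The RNA polymerase I subunit RPA49 lies furthest to the right in each panel, at 2.06 after acrolein. RPA12, of the same class, lies left of the line of no difference after acrolein and NEM. TFC6 lies furthest to the left after NEM, at -1.39.

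RPA190 encodes the largest subunit of RNA polymerase I, which forms the active centre together with the product of RPA135. RPA190 read 13.10, 12.83, 13.24 and 12.62 after acrolein, 11.92, 12.29, 12.50 and 11.89 after H2O2, 13.16, 12.84, 13.07 and 12.59 after NEM, and 11.74, 11.44, 11.83 and 11.19 in the control. Every treated array lay above every control array, by a narrow margin after H2O2. The difference was 1.40 ± 0.19 (SE) after acrolein (limma adjusted p = 2.72e-05), 0.60 ± 0.19 after H2O2 (adjusted p = 0.0406) and 1.36 ± 0.19 after NEM (adjusted p = 3.7e-05).

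The arrays of acrolein, NEM and control with the same replicate number moved together, and within numbers the RPA190 differences were closely spaced. Acrolein minus control was 1.37, 1.39, 1.41 and 1.43 in the pairs of replicates 1 to 4, and NEM minus control was 1.42, 1.39, 1.24 and 1.39. The pair differences of acrolein thus ran from 1.37 to 1.43, while the acrolein arrays themselves ran from 12.62 to 13.24.

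RPA135 read 13.17, 12.71, 13.21 and 12.64 after acrolein, 11.87, 12.30, 12.49 and 11.91 after H2O2, 12.61, 12.20, 12.74 and 12.28 after NEM, and 11.66, 11.25, 11.86 and 11.29 in the control. The treated arrays again lay above the control arrays in each comparison. The differences were 1.42 ± 0.20 after acrolein, 0.63 ± 0.20 after H2O2 and 0.94 ± 0.20 after NEM.

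With 1 array left out, the H2O2 differences ran from 0.48 to 0.69 for RPA190 and from 0.51 to 0.74 for RPA135. The H2O2 calls of these catalytic subunits were nevertheless lost with some single arrays left out. That of RPA190 ended without control replicate 2 (0.56, adjusted p = 0.099), control replicate 4 (0.48, adjusted p = 0.118), H2O2 replicate 2 (0.55, adjusted p = 0.103), H2O2 replicate 3 (0.48, adjusted p = 0.107) or NEM replicate 2 (0.60, adjusted p = 0.0519). That of RPA135 ended without control replicate 2 (0.54), control replicate 4 (0.55), H2O2 replicate 2 (0.57) or H2O2 replicate 3 (0.51), with adjusted p from 0.1 to 0.109.

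RPA49 and RPA34 encode a dimer that aids initiation and elongation and resembles the factor TFIIF of RNA polymerase II. RPA49 had the largest mean change of the RNA polymerase I subunits. It read 9.76, 8.89, 10.18 and 9.26 after acrolein, 8.27, 8.87, 9.03 and 8.50 after H2O2, 9.12, 8.72, 9.53 and 8.54 after NEM, and 7.39, 7.10, 8.01 and 7.37 in the control. No treated array fell within the control range. RPA49 rose by 2.06 ± 0.30, or 4.16-fold, after acrolein (adjusted p = 4.71e-05), by 1.20 ± 0.30 after H2O2 (adjusted p = 0.0122) and by 1.51 ± 0.30 after NEM (adjusted p = 0.000682).

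Its partner RPA34 read 10.86 to 11.58 after acrolein, 10.43 to 10.83 after H2O2, 10.44 to 11.08 after NEM and 10.06 to 10.38 in the control, with no overlap between a treatment and the control. It rose by 1.00 ± 0.17 after acrolein and by 0.57 ± 0.17 after NEM. After H2O2 its difference of 0.37 ± 0.17 was not called (adjusted p = 0.156).

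RPA43 and RPA14 encode the stalk of the enzyme, and the product of RPA43 is the contact of Rrn3. RPA43 read 9.59 to 10.40 after acrolein, 8.46 to 9.51 after H2O2, 8.59 to 9.73 after NEM and 7.62 to 8.51 in the control. It rose by 1.97 ± 0.32 after acrolein (3.92-fold) and by 1.18 ± 0.32 after NEM. The H2O2 arrays overlapped the control arrays, and the difference of 0.97 ± 0.32 missed the threshold (adjusted p = 0.0517).

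RPA14 had the smallest mean change of the subunits specific to RNA polymerase I. It read 11.75, 11.33, 11.63 and 11.59 after acrolein, 11.00, 11.29, 11.16 and 11.32 after H2O2, 11.73, 11.50, 11.62 and 11.49 after NEM, and 11.26, 11.08, 11.06 and 11.14 in the control. The acrolein and NEM arrays lay above the control arrays, and the H2O2 arrays overlapped them. It rose by 0.44 ± 0.09 after acrolein (adjusted p = 0.000906) and 0.45 ± 0.09 after NEM (adjusted p = 0.000875), and its difference after H2O2 was 0.06 ± 0.09 (adjusted p = 0.723).

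RPA12, which takes part in RNA cleavage and termination, was the member of this class that was not called in any comparison with the control. It was dim, at 3.94 to 5.48 after acrolein, 5.68 to 6.60 after H2O2, 4.28 to 5.33 after NEM and 5.22 to 5.68 in the control, so some of its values lay below the background level of 5.15. Its differences from the control were -0.49 ± 0.33, 0.47 ± 0.33 and -0.64 ± 0.33 after acrolein, H2O2 and NEM.

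**Figure D2:**
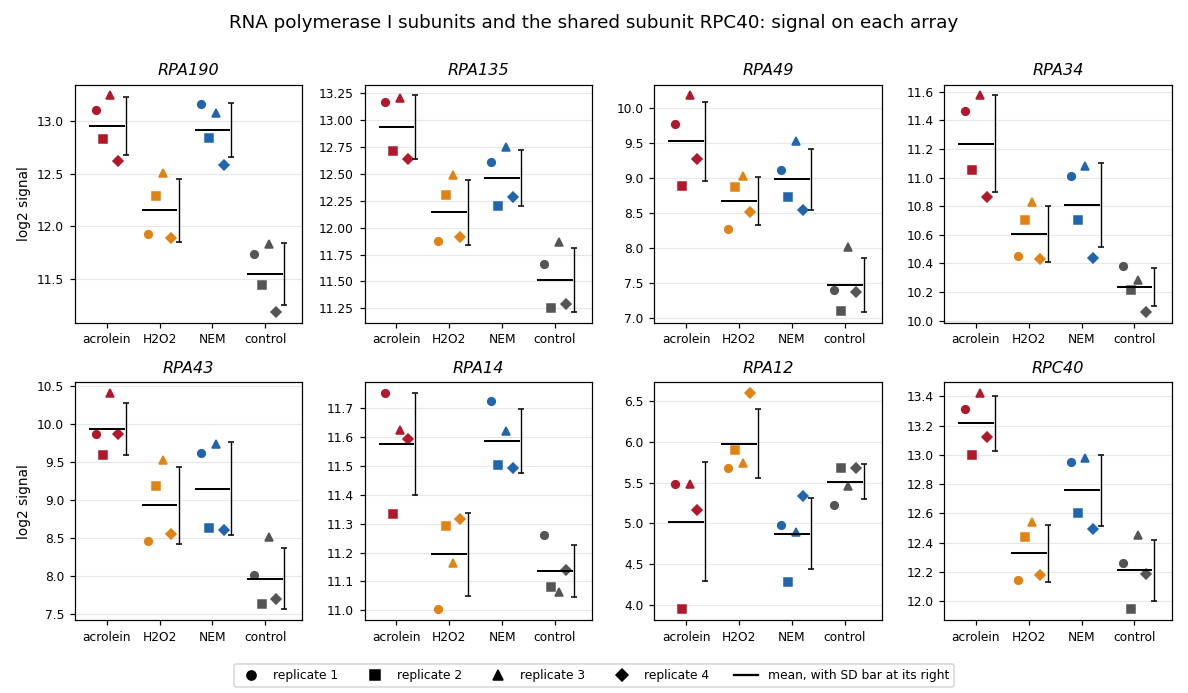
Log2 signal of the 7 RNA polymerase I subunit genes and of the shared subunit gene RPC40 on each of the 16 arrays, with marker shapes for the replicate number, a line at the group mean and a bar of 1 SD (n = 4). Each panel has its own scale. RPA190, RPA135, RPA49 and RPA34 show every treated array above the control arrays, and replicate 3 is the highest of its group for RPA135, RPA49 and RPA43 in all 4 groups.

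RPA190 and RPA43 are neighbours that are transcribed away from each other (gene order of assembly R64). YOR342C, on the other side of RPA190, differed by -0.53 after acrolein, -0.16 after H2O2 and -0.95 after NEM. UBC11, on the other side of RPA43, differed by 1.29, -0.05 and 0.07. RPA49 stands next to MPA43, a gene of uncertain function that reads in the same direction and was picked out after its values were seen. MPA43 was higher by 1.47 ± 0.07 after acrolein, by 0.49 ± 0.07 after H2O2 and by 1.01 ± 0.07 after NEM. The other neighbour of RPA49 has no value here. Whether members and their neighbours move together was not tested.

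The 3 shared subunits moved in different directions. RPC40 and RPC19 encode a dimer on which both enzymes are assembled, and RPC10 encodes a small zinc-binding subunit that RNA polymerase II also contains. RPC40 had the largest mean change of the 3 and RPC19 the smallest.

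RPC40 read 13.31, 13.00, 13.42 and 13.12 after acrolein, 12.15, 12.44, 12.54 and 12.18 after H2O2, 12.95, 12.60, 12.98 and 12.49 after NEM, and 12.26, 11.94, 12.45 and 12.19 in the control. The acrolein and NEM arrays were all above the control arrays, and the H2O2 arrays overlapped them. RPC40 rose by 1.00 ± 0.14 after acrolein (adjusted p = 4.12e-05) and 0.55 ± 0.14 after NEM (adjusted p = 0.00501), and differed by 0.12 ± 0.14 after H2O2 (adjusted p = 0.633).

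RPC19 read 6.54, 6.78, 7.42 and 6.78 after acrolein, 6.57, 7.24, 7.17 and 7.22 after H2O2, 6.86, 6.38, 7.86 and 6.49 after NEM, and 6.49, 7.35, 6.75 and 7.21 in the control. All groups overlapped. Its SE was 0.31 and its differences were -0.07, 0.10 and -0.05, with 95% intervals from -0.75 to 0.61 after acrolein, from -0.57 to 0.78 after H2O2 and from -0.73 to 0.62 after NEM, so a difference as large as that of RPA14 was not detectable for this gene.

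RPC10 fell after acrolein and after NEM. It read 10.90 to 11.12 after acrolein, 11.14 to 11.46 after H2O2, 10.32 to 10.69 after NEM and 11.34 to 11.41 in the control. The acrolein and NEM ranges lay below the control range. The difference was -0.34 ± 0.08 after acrolein (adjusted p = 0.0027), -0.06 ± 0.08 after H2O2 (adjusted p = 0.701) and -0.79 ± 0.08 after NEM (adjusted p = 2.73e-06).

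RNA polymerase III subunits gave a mixed picture, with most of the increases after acrolein. The share called higher was 50% after acrolein, 10% after H2O2 and 10% after NEM. It was 27.2%, 9.23% and 26.4% among all probe sets. RPO31 and RET1 encode the large catalytic subunits of the enzyme. RPO31 read 10.92, 10.37, 10.61 and 10.33 after acrolein, 10.32, 10.60, 10.43 and 10.30 after H2O2, 10.29, 10.07, 10.21 and 10.19 after NEM, and 9.90, 9.93, 9.98 and 9.94 in the control. Each treated array was above the control range of 9.90 to 9.98.

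After acrolein RPO31 rose by 0.62 ± 0.11 (adjusted p = 0.000234). After H2O2 it rose by 0.47 ± 0.11 (adjusted p = 0.00789). Its difference of 0.25 ± 0.11 after NEM was not called (adjusted p = 0.0592). RPO31 was the RNA polymerase III subunit called after H2O2.

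RET1 rose by 0.94 ± 0.16 after acrolein, with arrays at 12.00 to 12.65 against 11.10 to 11.60 in the control. After NEM it was 0.43 ± 0.16 higher (adjusted p = 0.0356). That call ended without control replicate 2 (0.34, adjusted p = 0.11), control replicate 4 (0.40, adjusted p = 0.0789), NEM replicate 1 (0.36, adjusted p = 0.102) or NEM replicate 3 (0.38, adjusted p = 0.0894).

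RPC53 and RPC37 encode a dimer used in termination and reinitiation, and they were called in opposite directions after acrolein. RPC53 had the largest mean change of the RNA polymerase III subunits. It read 8.95, 8.16, 9.04 and 8.72 after acrolein, 7.70, 7.81, 8.16 and 7.13 after H2O2, 8.22, 8.01, 8.63 and 7.85 after NEM, and 7.57, 7.51, 7.94 and 7.38 in the control. The acrolein arrays lay above the control arrays, and the H2O2 and NEM arrays overlapped them.

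RPC53 rose by 1.11 ± 0.24, or 2.16-fold, after acrolein (adjusted p = 0.00121), and differed by 0.10 ± 0.24 after H2O2 (adjusted p = 0.843). After NEM the difference of 0.58 ± 0.24 was not called (adjusted p = 0.0557), but it was called with the replicate number as a block (adjusted p = 0.00676), and all 4 pair differences lay between 0.47 and 0.69.

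RPC37 was lower after acrolein (difference -0.29 ± 0.12, adjusted p = 0.0397), with overlapping arrays. The call ended without any of control replicates 1, 3 and 4 or acrolein replicates 1, 2 and 4, with differences from -0.29 to -0.24 and adjusted p from 0.0678 to 0.107. After NEM its difference was -0.28 ± 0.12 (adjusted p = 0.0529), which the replicate block brought to adjusted p = 0.00969.

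RPC25 and RPC17 encode the stalk. RPC25 rose by 0.79 ± 0.18 after acrolein (adjusted p = 0.00185), with arrays at 9.25 to 10.06 against 8.61 to 9.03 in the control, and it differed by 0.03 ± 0.18 after H2O2 and by -0.06 ± 0.18 after NEM. RPC17 was not called against the control.

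RPC82, RPC34 and RPC31 encode a subcomplex used in initiation. RPC34 was 0.42 ± 0.15 higher after acrolein (adjusted p = 0.0258). The arrays overlapped, and the call ended without control replicate 2, control replicate 4, acrolein replicate 1 or acrolein replicate 3, with differences from 0.32 to 0.39 and adjusted p from 0.061 to 0.0839. RPC82 and RPC31 were not called, although RPC82 was called lower after NEM with the replicate block (-0.42 ± 0.16, adjusted p = 0.042, against 0.0639 without it).

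RPC11, a subunit for RNA cleavage and termination, had the smallest mean change of the class. It read 11.27, 11.01, 11.33 and 10.95 after acrolein, 11.15, 11.09, 11.35 and 10.91 after H2O2, 10.58, 10.60, 11.17 and 10.45 after NEM, and 11.04, 11.18, 11.20 and 10.95 in the control. All groups overlapped, although 3 of the NEM arrays lay below every control array. The NEM difference was -0.39 ± 0.15 (adjusted p = 0.0327), and the call ended without control replicate 2 or 3 or NEM replicate 1, 2 or 4, with differences from -0.36 to -0.31 and adjusted p from 0.0755 to 0.0953.

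**Figure D3:**
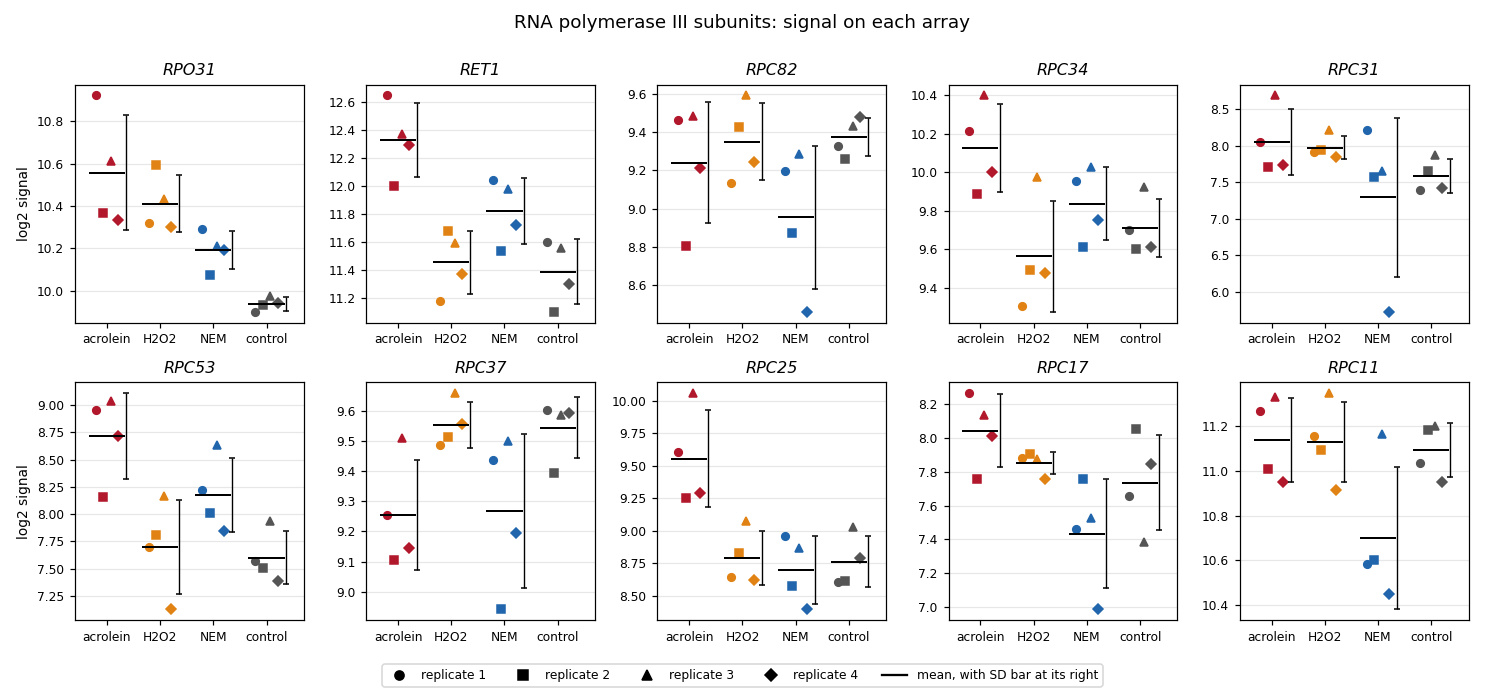
Log2 signal of the 10 RNA polymerase III subunit genes on each of the 16 arrays, drawn as for RNA polymerase I, with a scale of its own in each panel. RPO31 shows every treated array above the control arrays, RET1, RPC53 and RPC25 show the 4 acrolein arrays above them, and RPC82, RPC31 and RPC17 overlap between each treatment and the control.

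The 8 initiation factors of RNA polymerase I had a median difference of 0.19 after acrolein, -0.0012 after H2O2 and 0.047 after NEM, and 0 were called by limma after H2O2, where 1 had an unadjusted p under 0.05. RRN3 encodes the factor that makes RNA polymerase I competent to start. It read 10.09, 10.25, 9.84 and 10.28 after acrolein, 10.23, 10.28, 10.00 and 10.39 after H2O2, 10.21, 10.32, 10.34 and 10.63 after NEM, and 9.78, 9.89, 9.71 and 10.22 in the control. Control replicate 4 reached into the range of every treatment.

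RRN3 rose by 0.48 ± 0.13 after NEM (adjusted p = 0.00707). Its differences of 0.21 ± 0.13 after acrolein (adjusted p = 0.176) and 0.32 ± 0.13 after H2O2 (adjusted p = 0.105) were not called. The acrolein value was called with the replicate number as a block (0.21 ± 0.07, adjusted p = 0.017).

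Core factor consists of the products of RRN6, RRN7 and RRN11. RRN7 had the largest mean change of the initiation factors. It read 4.20, 5.94, 5.25 and 6.10 after acrolein, 6.10, 5.76, 6.09 and 5.96 after H2O2, 6.28, 6.21, 5.87 and 4.49 after NEM, and 6.50, 6.66, 6.89 and 6.73 in the control. All treated arrays lay below the control arrays, but the signal was dim, and acrolein replicate 1 and NEM replicate 4 read below the background level.

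RRN7 fell by 1.32 on the log2 scale after acrolein (difference -1.32 ± 0.41, adjusted p = 0.0127), and its differences of -0.72 ± 0.41 after H2O2 (adjusted p = 0.254) and -0.99 ± 0.41 after NEM (adjusted p = 0.0555) were not called. RRN11 was as dim, at 4.10 to 6.38 over all arrays, and was not called.

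RRN6 had the smallest mean change of the initiation factors. It read 10.00, 9.58, 9.82 and 9.50 after acrolein, 9.95, 9.94, 10.17 and 9.77 after H2O2, 9.59, 9.70, 10.02 and 9.77 after NEM, and 10.12, 9.87, 9.92 and 9.86 in the control. The groups overlapped, and the gene was not called.

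UAF consists of the products of RRN5, RRN9, RRN10 and UAF30, with histones H3 and H4. RRN9 rose by 0.44 ± 0.07 after acrolein (adjusted p = 9.41e-05) and 0.27 ± 0.07 after NEM (adjusted p = 0.00485), with 11.55 to 11.70 after acrolein, 11.36 to 11.55 after NEM and 11.09 to 11.29 in the control. UAF30, whose product keeps RNA polymerase II off the rDNA, fell by 1.00 on the log2 scale after NEM (SE 0.23, adjusted p = 0.00239), with arrays at 6.37 to 7.67 against 7.83 to 8.25 in the control. Its differences were 0.11 ± 0.23 after acrolein and -0.02 ± 0.23 after H2O2. RRN5 and RRN10 were not called against the control.

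TFIIIC genes had small differences apart from TFC6. TFC6 encodes a subunit of the part of TFIIIC that binds the B box inside tRNA genes, and it had the largest mean change of its class. It read 10.30, 10.25, 10.20 and 10.33 after acrolein, 10.82, 10.90, 10.94 and 11.16 after H2O2, 9.48, 9.49, 9.48 and 9.60 after NEM, and 10.80, 10.87, 11.00 and 10.96 in the control. Both the acrolein and the NEM arrays lay clear below the control arrays, and the NEM arrays clear below the acrolein arrays, while H2O2 arrays overlapped the control.

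TFC6 fell by 1.39 on the log2 scale after NEM (difference -1.39 ± 0.07, adjusted p = 9.7e-10), to 2.63-fold lower, and by 0.64 after acrolein (difference -0.64 ± 0.07, adjusted p = 2.46e-06). After H2O2 the difference was 0.05 ± 0.07 (adjusted p = 0.685). Its divergent neighbour ESC2, a gene linked to silencing and genome stability that was picked out after its values were seen, differed by -0.47 ± 0.09 after acrolein, -0.30 ± 0.09 after H2O2 and -0.87 ± 0.09 after NEM. Its H2O2 call (adjusted p = 0.0349) ended without any of control replicates 1, 3 and 4 or H2O2 replicates 1, 2 and 3, with differences from -0.31 to -0.27. BCP1, on the other side of TFC6, went the other way. It was higher by 1.07 after acrolein (limma adjusted p = 0.000165) and by 0.59 after NEM (adjusted p = 0.0121), and differed by 0.0042 after H2O2.

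TFC3, the large subunit that contacts the B box, was lower after acrolein (difference -0.23 ± 0.08, adjusted p = 0.0235). That call ended without control replicate 3 (-0.19, adjusted p = 0.0726), acrolein replicate 2 (-0.21, adjusted p = 0.053) or acrolein replicate 3 (-0.18, adjusted p = 0.0735). TFC4, whose product guides the assembly of TFIIIB, rose by 0.29 ± 0.07 after NEM (adjusted p = 0.00482). TFC1, of the part that binds the A box, was lower after H2O2 (difference -0.20 ± 0.05, adjusted p = 0.0137), the one member called lower there. Its differences of -0.12 ± 0.05 after acrolein (adjusted p = 0.0512) and 0.12 ± 0.05 after NEM (adjusted p = 0.0535) were not called.

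TFC8 had the smallest mean change in TFIIIC. It read 11.62, 11.74, 11.62 and 11.68 after acrolein, 11.45, 11.48, 11.32 and 11.75 after H2O2, 11.59, 11.52, 11.75 and 11.70 after NEM, and 11.55, 11.68, 11.44 and 11.51 in the control. The groups overlapped, and neither TFC8 nor TFC7 was called against the control.

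TFIIIB comprises the products of BRF1 and BDP1 together with the TATA-binding protein. BRF1, a relative of the RNA polymerase II factor TFIIB, read 11.99, 12.17, 12.15 and 12.18 after acrolein, 12.34, 12.16, 12.28 and 12.22 after H2O2, 12.32, 12.40, 12.37 and 12.35 after NEM, and 12.17, 12.35, 12.25 and 12.32 in the control. Every treatment overlapped the control. The acrolein difference of -0.15 ± 0.05 was called (adjusted p = 0.0202), but not without acrolein replicate 1, the array with the high ribosomal RNA signal (-0.11, adjusted p = 0.0667), control replicate 2 (-0.13, adjusted p = 0.0642) or control replicate 4 (-0.14, adjusted p = 0.0567).

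BDP1 read 12.09, 12.03, 12.20 and 12.31 after acrolein, 11.98, 12.03, 11.87 and 12.08 after H2O2, 12.26, 12.18, 11.93 and 12.25 after NEM, and 12.09, 11.97, 12.15 and 12.04 in the control. The groups overlapped and BDP1 was not called.

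MAF1 was called in opposite directions after acrolein and after NEM, at small sizes. It read 13.06, 13.15, 13.20 and 13.14 after acrolein, 12.98, 13.05, 13.15 and 12.95 after H2O2, 12.84, 12.66, 12.85 and 12.76 after NEM, and 12.93, 12.96, 12.92 and 12.83 in the control. The acrolein arrays lay above the control arrays, and the H2O2 and NEM arrays overlapped them.

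MAF1 rose by 0.23 ± 0.05 after acrolein (adjusted p = 0.00188) and differed by 0.12 ± 0.05 after H2O2 (adjusted p = 0.122). The NEM difference of -0.13 ± 0.05 just passed (adjusted p = 0.0466). That call ended without any of control replicates 1, 2 and 3, acrolein replicates 2 and 4, H2O2 replicates 1 and 2 or NEM replicates 2 and 4, with differences from -0.13 to -0.09 and adjusted p from 0.0514 to 0.149. In the direct comparison of the treatments, MAF1 was 0.36 ± 0.05 higher after acrolein than after NEM (adjusted p = 0.000122), with no overlap of arrays.

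**Figure D4:**
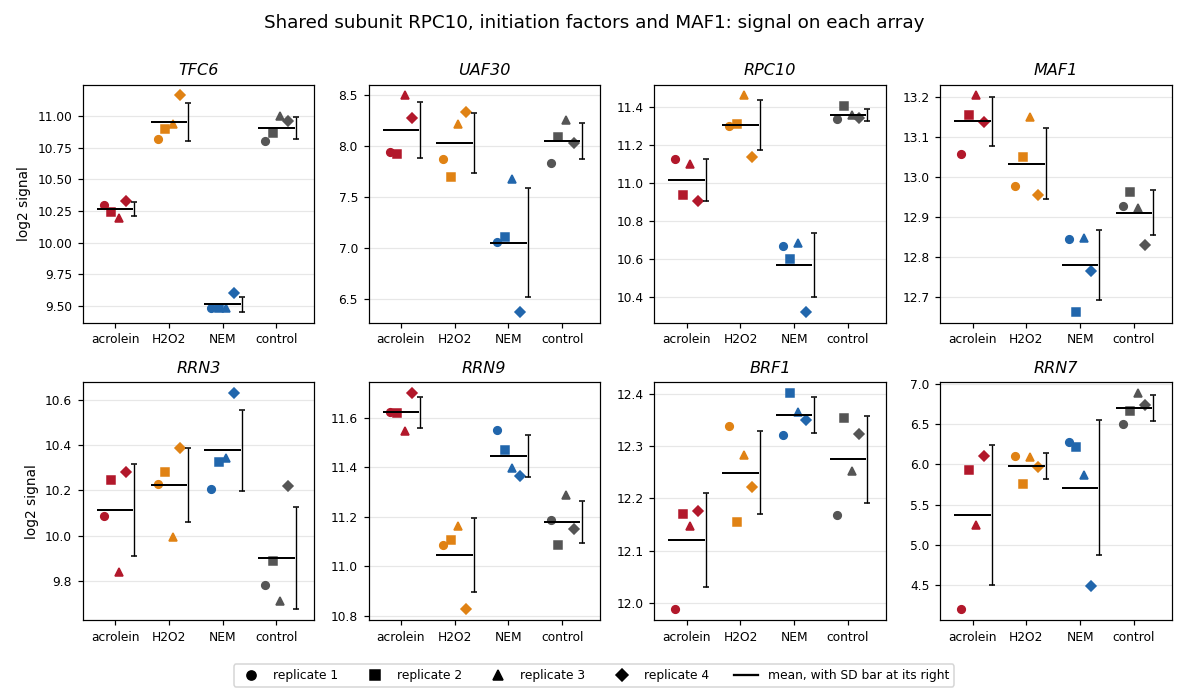
Log2 signal of TFC6, UAF30, RPC10, MAF1, RRN3, RRN9, BRF1 and RRN7 on each of the 16 arrays, with replicate markers, group mean and 1 SD (n = 4), each panel on its own scale. TFC6 is lowest on the 4 NEM arrays, at 9.48 to 9.60, and next lowest on the 4 acrolein arrays, while MAF1 is high on the acrolein arrays and low on the NEM arrays.

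Set directly against H2O2, acrolein gave 12 members higher and 5 lower, against 25.9% higher and 29.9% lower among all probe sets. All 7 RNA polymerase I subunits were called, 6 higher and RPA12 lower. RPA190 was 0.80 ± 0.19 higher (adjusted p = 0.00309), RPA135 0.79 ± 0.20 higher and RPA43 1.01 ± 0.32 higher. RPC40, RET1, RPC34, RPC53, RPC25 and RRN9 made up the rest of the higher members, among them RPC53 at 1.02 ± 0.24 and RPC40 at 0.89 ± 0.14. RPC10, RPC37, TFC6 and TFC7 were lower, with TFC6 at -0.69 ± 0.07.

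Several of these calls ended with 1 array left out. RPA49 (0.86 ± 0.30, adjusted p = 0.026) lost its call without acrolein replicate 1 (0.78) or 3 (0.64) or H2O2 replicate 1 (0.72) or 4 (0.80), and RPA43 without acrolein replicate 3 (0.85) or H2O2 replicate 1 (0.85) or 4 (0.88). RPA12 (-0.96 ± 0.33, adjusted p = 0.0243) lost its call without acrolein replicate 2 (-0.60) or H2O2 replicate 4 (-0.75), and with both doubted arrays left out (-0.91, adjusted p = 0.0511). After quantile normalization the RPA12 difference was -0.42 (adjusted p = 0.381), and its mean of 5.02 after acrolein lay below the background level of 5.15, against 5.98 after H2O2. With those 2 arrays left out RPA34 also lost its call (0.50, adjusted p = 0.0568, against 0.63 with all arrays). RPC37 (-0.30 ± 0.12, adjusted p = 0.0394) lost its call without acrolein replicate 1, 2 or 4 or any H2O2 replicate, with adjusted p from 0.053 to 0.104.

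Set directly against NEM, acrolein gave calls among the RNA polymerase III subunits and, without a block for the replicate number, none among the RNA polymerase I subunits. Of the 37 members 12 were higher and 3 lower after acrolein than after NEM, against 24.1% higher and 25.8% lower among all probe sets. Of the 7 RNA polymerase I subunits 0 were called by limma and 3 had an unadjusted p under 0.05, and their differences ran from -0.01 to 0.79. RPA190 differed by 0.04 ± 0.19 (95% interval -0.37 to 0.45) and RPA14 by -0.01 ± 0.09 (-0.21 to 0.19).

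The replicate block changed this count. With it 17 members were higher and 4 lower, and RPA135 (0.47, adjusted p = 0.0073), RPA34 (0.43, adjusted p = 0.00607), RPA43 (0.79, adjusted p = 0.00992) and RPA49 (0.55, adjusted p = 0.0294) were called higher after acrolein than after NEM. RPC34 (0.29, adjusted p = 0.0143) and RPC53 (0.54, adjusted p = 0.0118) joined them, RRN3 was called lower (-0.26, adjusted p = 0.00779), and RRN9 was no longer called (0.18, adjusted p = 0.0553). RPA135 was higher after acrolein in every pair, by 0.35 to 0.56, while the pair differences of RPA190 ran from -0.05 to 0.17. The shares of all probe sets called with the block are not given here, so the counts of 17 and 4 are not set against them.

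Of the 10 RNA polymerase III subunits 5 were higher after acrolein than after NEM and none was lower. The shares among all probe sets were 24.1% higher and 25.8% lower. RPC25 stood 0.85 ± 0.18 higher (adjusted p = 0.00195), RPC17 0.61 ± 0.16 higher and RPO31 0.37 ± 0.11 higher. The RPO31 call ended when only the arrays of these 2 treatments were fitted (adjusted p = 0.0612). RET1 (0.51 ± 0.16, adjusted p = 0.0198) lost its call without acrolein replicate 1 (0.40) or NEM replicate 2 (0.41). RPC11 (0.44 ± 0.15, adjusted p = 0.0231) lost its call without acrolein replicate 1 or 3 or NEM replicate 1, 2 or 4, with differences from 0.36 to 0.41.

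UAF30 was 1.10 ± 0.23 higher after acrolein than after NEM (adjusted p = 0.00179), at 7.92 to 8.49 against 6.37 to 7.67. TFC6 was 0.75 ± 0.07 higher (adjusted p = 2.1e-06), RPC10 0.45 ± 0.08 higher and RRN10 0.41 ± 0.10 higher. The members lower after acrolein than after NEM were TFC4 (-0.40 ± 0.07), TFC1 (-0.25 ± 0.05) and BRF1 (-0.24 ± 0.05, adjusted p = 0.00234), each with no overlap of arrays. RPC40 (0.46 ± 0.14, adjusted p = 0.0177) lost its call without acrolein replicate 3 (0.39) or NEM replicate 2 (0.41) or 4 (0.37). RRN9 (0.18 ± 0.07, adjusted p = 0.0498) lost its call with any of 11 single arrays left out, with differences from 0.15 to 0.18.

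NEM against H2O2 gave 6 members higher and 8 lower, against 25.1% higher and 27.2% lower among all probe sets. RPA190 was 0.76 ± 0.19 higher after NEM (adjusted p = 0.00417), RPA14 0.39 ± 0.09, RRN9 0.40 ± 0.07, TFC1 0.33 ± 0.05 and TFC4 0.27 ± 0.07 higher. RPC40 (0.43 ± 0.14, adjusted p = 0.0219) lost its call without H2O2 replicate 1 or 4 or NEM replicate 1 or 3, with differences from 0.36 to 0.38. The other large RNA polymerase I genes were not called, with RPA135 at 0.32 ± 0.20, RPA49 at 0.31 ± 0.30 and RPA43 at 0.22 ± 0.32.

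Among the lower members after NEM, TFC6 stood at -1.44 ± 0.07 (adjusted p = 1.31e-09), RPA12 at -1.11 ± 0.33 (adjusted p = 0.0121), UAF30 at -0.98 ± 0.23, RPC10 at -0.73 ± 0.08 and MAF1 at -0.25 ± 0.05. Quantile normalization ended the RPA12 call (-0.56, adjusted p = 0.24) and brought UAF30 to -0.57, still called. The RPA12 mean of 4.87 after NEM was below the background level, against 5.98 after H2O2. RPC11 (-0.43 ± 0.15) lost its call without H2O2 replicate 1 or 3 or NEM replicate 1, 2 or 4, with differences from -0.42 to -0.34. TFC7 (-0.22 ± 0.08) lost its call without H2O2 replicate 2 or 4 or NEM replicate 1, 2 or 4, with differences from -0.21 to -0.18. RPC17 (-0.42 ± 0.16, adjusted p = 0.0463) lost its call with any of 11 single arrays left out, with differences from -0.45 to -0.27, and was -0.074 after quantile normalization (adjusted p = 0.738).

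**Figure D5:**
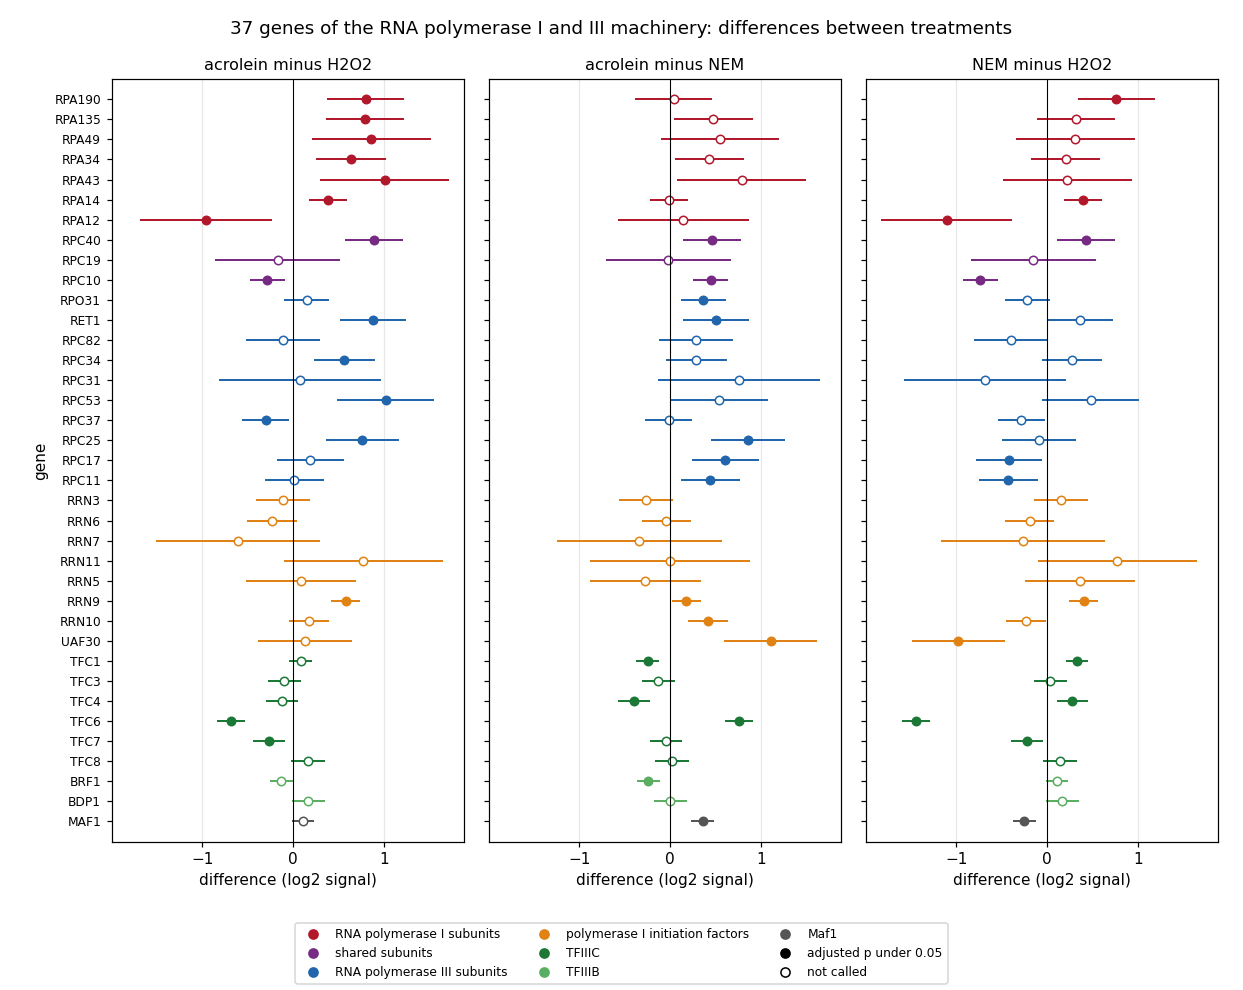
Difference in log2 signal between treatments for the 37 genes, as acrolein minus H2O2, acrolein minus NEM and NEM minus H2O2, with bars for the 95% interval of the limma model and filled points for called genes. RNA polymerase I subunits are filled throughout in the panel of acrolein minus H2O2 and open throughout in the panel of acrolein minus NEM, and TFC6 is called in all 3 panels.

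By pattern over the comparisons with the control, which share their control arrays, 12 members were not called in any. RPA190, RPA135 and RPA49 were called higher in all 3. RPA34, RPA43, RPA14, RPC40, RET1 and RRN9 were called higher after acrolein and NEM, RPO31 after acrolein and H2O2, and RPC34, RPC53 and RPC25 after acrolein alone. RPC10 and TFC6 were called lower after acrolein and NEM, and RPC37, RRN7, TFC3 and BRF1 after acrolein alone. RRN3 and TFC4 were called higher, and RPC11 and UAF30 lower, after NEM alone. MAF1 and TFC1 had the patterns described above. A call in 1 treatment and none in another is no test of a difference, which the direct comparisons give. Among all probe sets 64.0% were called after acrolein, 19.8% after H2O2 and 58.6% after NEM. Their shares by pattern are not given, so the pattern counts do not compare the members with all probe sets.

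Related genes outside the set give a setting for these values. Of 7 subunits specific to RNA polymerase II 1 was higher and 2 lower after acrolein, 1 was lower after H2O2, and 2 were higher and 2 lower after NEM. The shares among all probe sets were 27.2% higher and 36.9% lower after acrolein, 9.23% and 10.6% after H2O2, and 26.4% and 32.2% after NEM, and they apply to each list below. With acrolein replicate 1 or H2O2 replicate 4 left out, 2 of these subunits were higher after acrolein, and the H2O2 call was lost when only the H2O2 and control arrays were fitted. RPO21, the largest subunit, was 0.66 ± 0.15 higher after NEM, at 12.79 to 13.18 against 12.02 to 12.46 in the control, and its differences were 0.33 ± 0.15 after acrolein and 0.34 ± 0.15 after H2O2, neither called. RPB2, the other large subunit, was 0.21 ± 0.04 higher after acrolein and 0.42 ± 0.04 higher after NEM, and RPB11, which helps the enzyme assemble, was lower after acrolein (difference -0.47 ± 0.06).

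Of 4 further subunits common to all nuclear polymerases RPB5 was 0.53 ± 0.10 higher and RPO26 lower (-0.41 ± 0.11) after acrolein, and RPO26 was lower after NEM as well (-0.41 ± 0.11). RPB8 was 0.40 ± 0.12 higher after acrolein. Its NEM call (0.32 ± 0.12, adjusted p = 0.0382) ended without control replicate 2, 3 or 4 or NEM replicate 1 or 4, with differences from 0.26 to 0.32.

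Among 11 other factors of the rDNA and the 5S gene, 5 were higher and 3 lower after acrolein, 1 higher and 1 lower after H2O2, and 7 higher and 2 lower after NEM. The H2O2 counts were 2 higher without control replicate 3 or H2O2 replicate 4, and 2 lower without control replicate 2, acrolein replicate 1 or H2O2 replicate 1 or 3. REB1, whose product binds the rDNA terminator and many promoters of RNA polymerase II, rose by 1.47 ± 0.09 after acrolein and by 1.89 ± 0.09 after NEM (adjusted p = 1.41e-09), with 13.04 to 13.43 after acrolein, 13.56 to 13.82 after NEM and 11.67 to 11.95 in the control. SPT15, the TATA-binding protein that all nuclear polymerases use, rose by 0.77 ± 0.07, 0.34 ± 0.07 and 0.76 ± 0.07 after acrolein, H2O2 and NEM. PZF1, the 5S-specific factor TFIIIA, was lower in each comparison, with differences of -0.62 ± 0.13 after acrolein, -0.66 ± 0.13 after H2O2 and -0.47 ± 0.13 after NEM. After quantile normalization its acrolein difference was -0.40 and still called, and the NEM call ended (-0.24, adjusted p = 0.0814).

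RNT1, an RNase III that cuts the ribosomal RNA precursor, rose by 1.91 ± 0.37 after acrolein (adjusted p = 0.000551). Its NEM difference of 0.94 ± 0.37 (adjusted p = 0.0437) lost its call with any of 9 single arrays left out, with differences from 0.66 to 1.03 and adjusted p from 0.0513 to 0.138.

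Of 19 genes for kinases, phosphatases and other regulators of Maf1 or its pathway, 13 were lower and 1 higher after acrolein, against 36.9% lower among all probe sets. After H2O2 1 was higher, and after NEM 6 were lower and 1 higher, against 32.2% lower. The count of 13 was the highest over all settings. It was 8 without acrolein replicate 1, the array with the high ribosomal RNA signal, and 9 to 13 without any other single array. The share of 36.9% comes from the model of all arrays. A count of 8 of 19 lies near it, but the share without that array is not given here. The gene higher after acrolein lost its call without control replicate 1 or 2 or acrolein replicate 4, and that higher after NEM without control replicate 1, 2 or 3 or NEM replicate 1, 2 or 3. SCH9, a kinase that phosphorylates Maf1, fell by 0.97 on the log2 scale after acrolein (difference -0.97 ± 0.15, adjusted p = 0.000106), with 10.00 to 10.71 against 11.28 to 11.58 in the control. KNS1, a kinase that acts on the product of RPC53, differed by -0.71 ± 0.10 after acrolein and by -0.32 ± 0.10 after NEM, a call that was lost with only the NEM and control arrays fitted (adjusted p = 0.0532). TOR1, a kinase of the TORC1 complex, differed by -0.48 ± 0.09 after acrolein. TPK3, a protein kinase A subunit, was 0.30 ± 0.08 higher after H2O2 (adjusted p = 0.0161), but with control replicate 4 left out it was not called (0.26, adjusted p = 0.0525).

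Among 11 protein subunits of RNase P and RNase MRP, which process transcripts of both enzymes, 5 were higher and 4 lower after acrolein, 0 were called by limma after H2O2 (3 at an unadjusted p under 0.05, and up to 1 higher or 1 lower with 1 array left out), and 4 were higher and 4 lower after NEM. POP1, the largest of these proteins, was 1.37 ± 0.11 higher after NEM and 0.66 ± 0.11 higher after acrolein. RPP1 was 0.99 ± 0.17 higher and RMP1 0.93 ± 0.14 higher after acrolein, while RPR2 was lower (-0.78 ± 0.17). POP7 differed by -0.95 ± 0.07 and SNM1 by -0.88 ± 0.09 after NEM.

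The only probe sets read for products of RNA polymerase I were the 7 ribosomal RNA control probe sets that set 2 arrays apart above. Whether they follow the output of the enzyme was not tested, and their mean ran from 4.38 to 11.56 within the H2O2 group. Products of RNA polymerase III were not analysed here. The mean ribosomal RNA signal differed from the control by 1.63 after acrolein, -2.01 after H2O2 and 0.93 after NEM. With 1 array left out these differences ran from 0.55 (without acrolein replicate 1) to 2.65 (without acrolein replicate 4), from -2.99 (without H2O2 replicate 2) to -0.60 (without H2O2 replicate 4), and from 0.31 (without control replicate 4) to 1.70 (without NEM replicate 4). None passed an exact permutation test (p = 0.314, 0.343 and 0.4, two-sided, n = 4 per group, smallest possible 0.0286). The part of RNA quality or of ribosomal RNA signal in the member values was not tested beyond leaving out the 2 arrays named above. In these bulk samples, fewer cells with a transcript and less of it per cell cannot be told apart.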

How the data were processed

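The authors summarised 16 Affymetrix arrays with GCRMA, per the submitters' processing notes, and deposited log2 signals, which were used as they stand. Probe sets were named from the platform annotation and the R64 gene table. Of 10928 probe sets, 166 controls and 1747 of another yeast species were left out, 49 dimmer ones of a gene were dropped, and 3181 that were constant on all arrays, which cannot be tested, were removed against the plan. The remaining 5785 hold 5404 named genes and 381 without a name.

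All arrays entered 1 limma 3.58.1 model in R 4.3.3 with a mean per group and no covariates. The model was run on simulated data with independent noise on each array, which cannot show how correlated replicate numbers affect it. The 6 comparisons were two-sided, with Benjamini-Hochberg adjustment within each and empirical Bayes variances (12 residual degrees of freedom, prior degrees of freedom 1.15). The rest used Python 3.11.15 with pandas 2.3.3, numpy 2.4.6, matplotlib 3.10.9 and scipy 1.17.1. The precision is limited by 4 arrays per group.

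Members and lists were chosen with earlier results of these data known. Array values are given for the member with the largest and the smallest mean absolute change per class and for RPA190, RPO31, RRN3, BRF1 and MAF1. For related lists, up to 3 called genes with the largest change per comparison may be named. PZF1, POP1 and RPO21 carry further values chosen after they were seen, as do the neighbours MPA43, ESC2, BCP1, YOR342C and UBC11.

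Arrays that share a replicate number had correlated residuals, at 0.32 to 0.45 for acrolein with NEM, 0.20 to 0.45 for acrolein with the control and 0.32 to 0.56 for NEM with the control. Numbers were taken to pair the arrays there. For H2O2 with the control the correlations were 0.69 and 0.58 at replicates 3 and 4, but -0.19 and -0.05 at replicates 1 and 2. H2O2 replicates 1 and 2 each had a higher correlation with another control number, at 0.42 and 0.40. The numbers therefore do not pair the H2O2 arrays throughout. Alternatives were the replicate block, the 2 groups alone, median centring, quantile normalization, array weights, a trended robust prior, a filter at a mean log2 signal of 6, averaged probe sets, named genes only and each array left out. A planned search of promoters for motifs was not run, since no promoter sequences were used here. Of the planned regulators, 1 is not reported here.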

Additional observations from a re-analysis of the deposited data

Results flagged for a closer look

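Among 148 groups of 4 arrays checked, 6 held an array whose gap to the nearest of the others, as a share of the group's range, passed Dixon's 95% limit for 4 values, and chance flags about 1 group in 20. RRN5 read 8.95 on acrolein replicate 1, against 9.99 to 10.07 on the other acrolein arrays. BRF1 read 11.99 on the same array, against 12.15 to 12.18. RPC19 read 6.57 on H2O2 replicate 1, against 7.17 to 7.24. TFC6 read 9.60 on NEM replicate 4, against 9.48 to 9.49, and TFC7 read 10.98 on NEM replicate 3, against 10.83 to 10.84. RPC37 read 9.39 on control replicate 2, against 9.59 to 9.60. The cause was not tested.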

How the results depend on the processing

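Of 87 calls of members over the 6 comparisons, 74 to 87 were kept under each setting (82 of 84 with dim probe sets left out), and no call changed sign. The fewest were kept with acrolein replicate 1 and H2O2 replicate 4 both left out. Shares among all probe sets are not given for the settings of this section. The replicate block gave 7 members higher after H2O2 than in the control, against 4 without it, although replicate numbers 1 and 2 do not pair these arrays. It changed no other call than those given above in the 3 paired comparisons. Members called lower numbered 2 after H2O2 with only the 2 groups fitted (1 in the model of all arrays), 9 after NEM with array weights (5 otherwise), and after quantile normalization 3 in acrolein minus H2O2 (otherwise 5) and 5 in NEM minus H2O2 (otherwise 8). With each array left out in turn, members called higher after H2O2 ran from 2 to 5 and lower from 1 to 2, lower after NEM from 3 to 8, lower in acrolein minus H2O2 from 3 to 6, and lower in NEM minus H2O2 from 5 to 10. The lows and highs named here came without control replicate 2, H2O2 replicate 2 or H2O2 replicate 3 for H2O2 (2 higher), and without NEM replicate 4 (3 lower) or NEM replicate 3 (8 lower) for NEM.

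Values that were not called changed sign in a few settings. After quantile normalization RPA12 read 0.18 after acrolein and 0.039 after NEM, RPC19 0.17 and 0.31, and RPC25 0.044 after NEM. Array weights gave 0.0059 for RPC19 after acrolein and -0.022 for RPA190 in acrolein minus NEM. With both doubted arrays left out RPC19 was 0.043 after acrolein, TFC6 -0.022 after H2O2 and RPA190 -0.014 in acrolein minus NEM. With 1 array left out RPC19 ran from -0.25 to 0.062 after acrolein and from -0.37 to 0.12 after NEM, UAF30 from -0.0043 to 0.19 after acrolein and from -0.12 to 0.090 after H2O2, TFC6 from -0.022 to 0.093 after H2O2, and RPC25 from -0.15 to 0.041 after NEM. In acrolein minus NEM RPA190 ran from -0.072 to 0.15 and RPA14 from -0.068 to 0.072. The cause was not tested. Signal near background limits RPA12, RRN7 and RRN11.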
